A study of Mus musculus with 8 samples.

Results

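In a mouse melanocyte line, 865 of 4159 SOX10 sites, 20.8% (95% Wilson interval 19.6 to 22.1%), had their summit in a gap of H3K27ac with an acetylated region within 1 kb on either side. A SOX10 site, or an H3K27ac or H3K27me3 region, is a stretch where the called peaks of both replicates of that antibody shared at least 1 bp and were merged. The summit of a site is that of its peak with most sequence tags. A site is called flanked here if no H3K27ac region covered the summit, the nearest H3K27ac region to the left ended at most 1000 bp away and the nearest to the right began at most 1000 bp away. The other SOX10 sites had the summit inside an H3K27ac region (682 sites), an H3K27ac region within 1 kb on one side only (853 sites) or none within 1 kb (1759 sites).

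The peak lists came from chromatin immunoprecipitation sequencing (ChIP-seq) of melan-Ink4a-Arf-1, listed by the submitters with the name melan-a as well, which is an immortalised melanocyte line from normal embryonic skin of mice with the Cdkn2a tm1RDp/tm1RDp genotype. All libraries came from this 1 line, in medium with 10% fetal bovine serum, 200 nM of the phorbol ester TPA (12-O-tetradecanoylphorbol 13-acetate) and 200 pM cholera toxin, so the genotype and both agents were shared by all groups. SOX10, H3K27ac and H3K27me3 had 2 libraries each from independent experiments, per the labels' protocols, and peaks were called against an input library made without antibody. Kept tags were 6440395 and 8985699 for SOX10 replicates 1 and 2, and between 44416913 and 71987481 for the histone marks. The labelled cell type was not checked against marker genes, and gene context was not analysed here, because no annotation of the mm9 build was used; positions are in mm9.

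SOX10 belongs to the SOX family of transcription factors, which bind DNA through a high-mobility-group domain, and melanocytes need it to form from the neural crest. H3K27ac is acetylation of lysine 27 on histone H3 and marks active promoters and enhancers. It is a mark on nucleosomes, and factor-bound regulatory DNA is often poor in nucleosomes, so a dip of histone marks between acetylated neighbours is a familiar shape at active enhancers. H3K27me3, trimethylation of the same lysine by Polycomb repressive complex 2, marks repressed chromatin. Nucleosome occupancy was not measured in these data.

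The sites were chosen by the measured positions of SOX10 and H3K27ac peaks, so all values of these 2 antibodies are a description without a test. Shares carry 95% Wilson intervals, which cover counting error only. Where no site was counted, the upper limit given is 3 over the number of sites instead. A comparison of 2 libraries with 2 others cannot go below p = 0.333 in a two-sided exact permutation test, and sites within a list are not replicates, so differences between classes of sites were not tested.

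The gap around the SOX10 summit is an absence of shared peak calls, and the rule limits its length, since each flank lies within 1 kb. The gap between both flanks had a median of 539 bp, with the middle 50% of sites from 336 to 820 bp, and ranged from 31 to 1916 bp. It was at most 500 bp at 411 sites (47.5%) and at most 1000 bp at 764 sites (88.3%). The left flank ended at a median of 244 bp from the summit and the right flank began at a median of 228 bp. The summit of a flank, taken from its peak with most tags in a library, lies at or beyond the flank's near edge by definition. Counted from the SOX10 summit, that of the left flank stood at a median of -685 bp in H3K27ac replicate 1 and -688 bp in replicate 2. The right flank's summit stood at 627 and 637 bp. The left flank's summit was the farther at 473 of 865 sites in replicate 1 and at 468 in replicate 2. Sides follow the genome's coordinates and sites were not oriented, so this small excess is not read as a trait of the sites. Its source was not tested. From one flank summit to the other the median distance was 1387 bp in replicate 1 and 1383 bp in replicate 2.

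**Figure D1:**
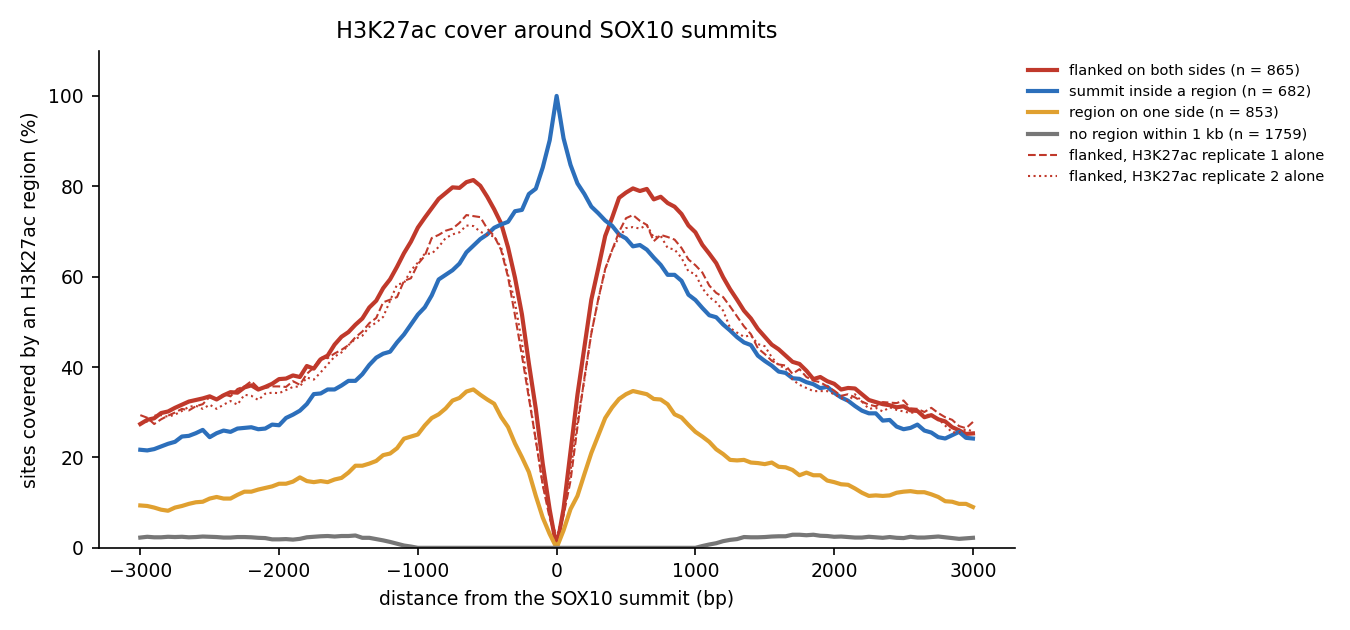
Share of SOX10 sites (%) at which an H3K27ac region covers a position, against the distance of that position from the SOX10 summit (bp), for 4 classes of sites; solid lines are regions found in both H3K27ac replicates, and the dashed and dotted lines are the flanked sites with the peaks of 1 replicate alone. At flanked sites the share is 0% at the summit, as the rule sets it, reaches 81.4% at 600 bp to the left and 79.5% at 550 bp to the right, and stays at 27.4% and 25.3% at 3000 bp.

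Left and right follow the genome's coordinates and the sites were not oriented, so an average profile with like sides follows from the rule and says nothing of single sites. H3K27ac regions covered 51.7% of flanked sites at 250 bp to the left and 54.9% at 250 bp to the right, then 77.7% and 78.6% at 500 bp. At 2000 bp 37.3% on the left and 36.3% on the right were still covered. Sites with the summit inside a region had 27.1% and 34.3% there, sites with acetylation on one side had 14.2% and 14.5%, and sites with none within 1 kb had 1.88% and 2.44%. The rule limits only the near edge of a flank, so wide flanks themselves can make up part of the cover at 2000 bp. That comparison of classes is therefore not free of the rule. With the peaks of 1 H3K27ac replicate alone, cover of the flanked sites was highest at 73.6% for replicate 1 and 71.4% for replicate 2 on the right.

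The rule asks for flanks found in both H3K27ac libraries, so each library alone had to give nearly the same class at the chosen sites. Over all 4159 SOX10 sites, the peaks of replicate 1 alone gave 1274 flanked sites (30.6%). Those of replicate 2 alone gave 1262 (30.3%). The counts that follow cover only the 865 chosen sites, so they do not show how many sites the merging left out. With replicate 1 alone 838 of the 865 sites (96.9%) were flanked, 13 had the summit covered and 14 kept a region on one side only. With replicate 2 alone these numbers were 832 (96.2%), 21 and 12. At 807 sites (93.3%) both libraries alone gave a flanked summit. The median gap was 578 bp in replicate 1 and 584.5 bp in replicate 2, or 581 ± 4.60 bp (SD, n = 2). Across the 807 sites, which come from the same pair of libraries, the log2 gap lengths of both replicates correlated with r = 0.472, so the length of a single gap was much less alike than the medians. At 647 sites (74.8%) neither library had any peak base between the flanks. At the rest the gap held a peak of at least 1 library that no peak of the other overlapped. Replicate 1 had such a peak at 112 sites and replicate 2 at 117, and some gaps held peaks of both.

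SOX10 summits of both libraries mostly lay close together. The summits of both replicates were at most 50 bp apart at 485 sites (56.1%), at most 100 bp at 677 sites (78.3%), and over 500 bp apart at 22. Both summits fell in the same gap at 757 sites (87.5%). Replicate 2, which kept more tags, gave the summit at 782 sites. With the replicate 1 summit 764 of the 865 sites were still flanked, 92 had the summit covered and 9 had acetylation on one side, and with the replicate 2 summit 853 were still flanked. With the gap cut into 3 equal parts, 374 summits (43.2%) lay in the middle one, 233 (26.9%) in the left one and 258 (29.8%) in the right one. The median distance of the summit from the gap's centre was 85 bp. The SOX10 site, with a median width of 1305 bp, was usually wider than the gap: 680 sites (78.6%) shared bases with both flanks, 170 with one and 15 with neither.

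The limit of 1 kb cut through a continuous range of distances. The 3 sites just inside it, chr5:92919667-92920494, chr15:63489435-63490707 and chr9:79840643-79841481, had their farther flank at 998 bp and mean SOX10 fold enrichments of 10.4, 7.245 and 10.4. Just outside were chr1:10761565-10763371, chr13:9760918-9761935 and chr10:120181858-120183047, with the farther flank at 1001, 1016 and 1018 bp and folds of 34.7, 13.6 and 8.85. Fold enrichment here is the authors' ratio of ChIP tags at the summit to the input background.

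The flanked site with the highest SOX10 fold enrichment lay on chromosome 10 at 52549865 to 52551433. It had 72 tags and a fold of 58.3 in replicate 1, and 94 tags and a fold of 46.7 in replicate 2, or 52.5 ± 8.18 (SD, n = 2). Its summits in both libraries were 3 bp apart. The left flank, at 52549163 to 52550856, ended 32 bp from the summit with an H3K27ac fold of 8.11 and 9.04, and the right flank, at 52551063 to 52551425, began 175 bp away with 6.67 and 6.03. The input background of the SOX10 peak at this site was 1.11 and 1.27 times the genome-wide level.

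The second site, on chromosome 2 at 102713018 to 102714152, had SOX10 folds of 49.02 and 55.5, or 52.3 ± 4.58 (SD, n = 2), with 58 and 82 tags. Its gap of 434 bp lay between a flank of 1446 bp, with H3K27ac folds of 7.66 and 13.07, and one of 2494 bp with 9.68 and 10.2. The third, on chromosome 2 at 138187230 to 138189084, had SOX10 folds of 49.2 and 50.3 and by far the longest gap of the 10 strongest, 1425 bp. There H3K27ac replicate 1 alone did not give a flanked summit, and both libraries had a peak base inside the gap.

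The other sites among the 10 with the highest fold lay on chromosomes 11, 6, 18, 1, 7 and 14, with a second one on chromosome 1. Their mean folds ran from 48.1 on chromosome 11 (70641814 to 70643865) to 37.5 on chromosome 1 (81909632 to 81910945). The site on chromosome 6 at 134486592 to 134488596 carried the most tags of these, 118 and 167, with folds of 53.4 and 39.7. The replicates were least alike on chromosome 7 at 120190876 to 120192575, with 30.02 and 49.9 from 42 and 104 tags. Leaving out the site with the gap of 1425 bp, the gaps of the 10 sites ran from 206 to 543 bp and held no peak base of either H3K27ac library. The mean H3K27ac fold of the flanks of the 10 sites lay between 6.32 and 13.4, on a scale that cannot be set against the SOX10 fold, since input, depth and calling settings differed.

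**Figure D2:**
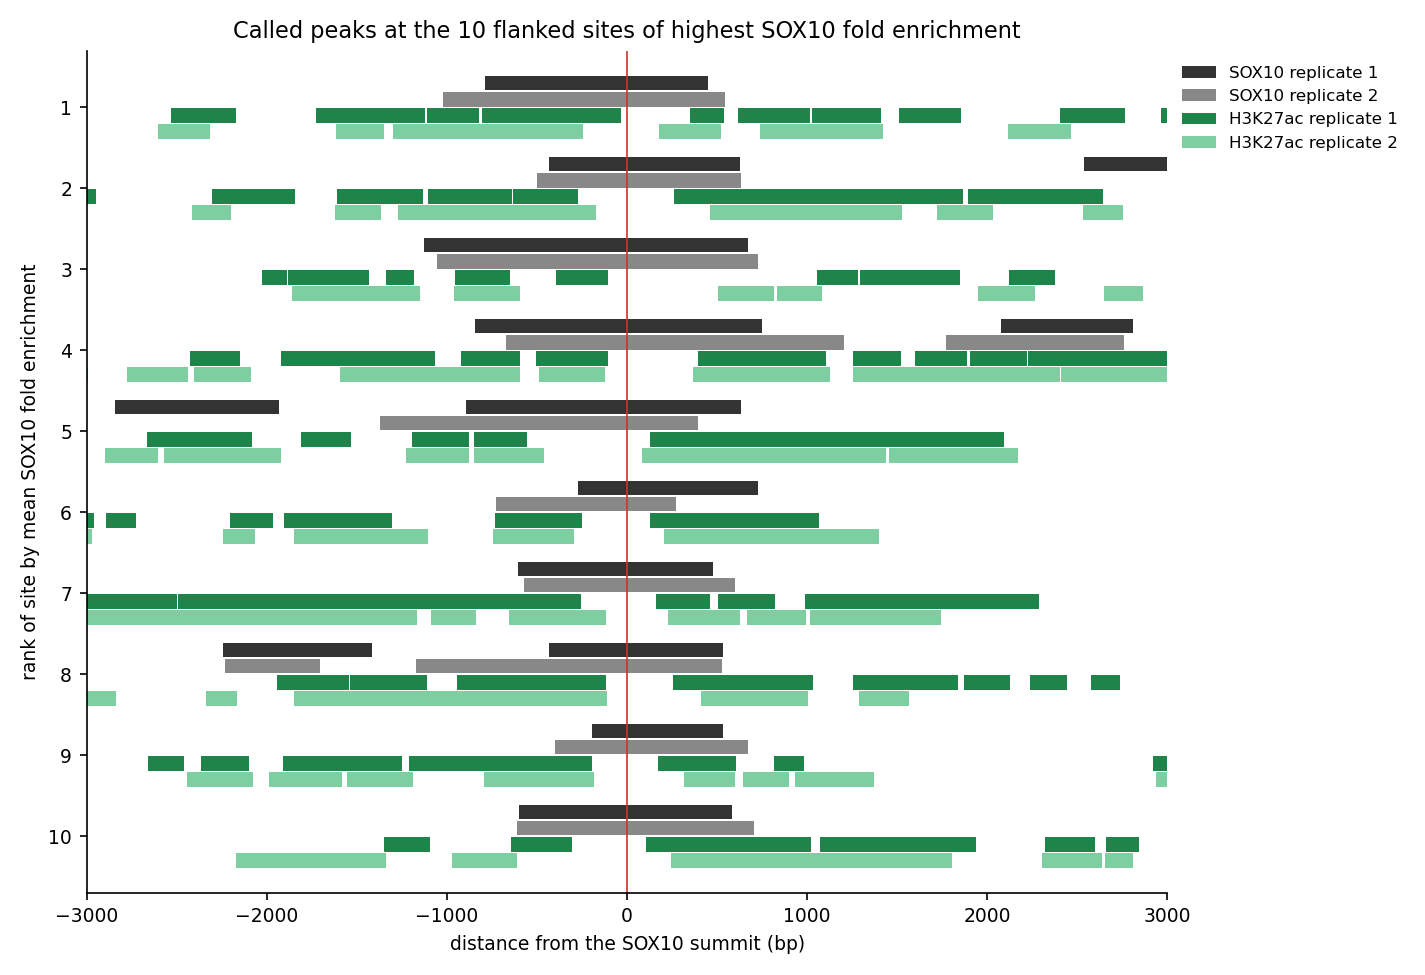
Called peaks of the 2 SOX10 and 2 H3K27ac libraries at the 10 flanked sites of highest mean SOX10 fold enrichment, ranked from 1 at the top; the horizontal axis is the distance from the SOX10 summit (bp, red line), and each bar spans 1 peak. At every site the SOX10 bars cross the summit between H3K27ac bars to the left and right; the gap is 206 bp at rank 1 and 1425 bp at rank 3, where peaks found in 1 H3K27ac library lie inside it.

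The shortest gap, 31 bp, was on chromosome 4 at 144593669 to 144594904, between flanks of 2723 and 2209 bp, with SOX10 folds of 14.4 and 17.1. H3K27ac replicate 2 alone also gave 31 bp there, and replicate 1 gave 414 bp. The next shortest gaps, 32 bp on chromosome 17 (26055917 to 26056607), 42 bp on chromosome 17 (84581683 to 84583385), 48 bp on chromosome 8 (114006936 to 114008030) and 49 bp on chromosome 9 (72497096 to 72498377), were 32, 49, 307 and 49 bp in replicate 1 alone and 76, 99, 105 and 83 bp in replicate 2. At these 5 sites the merged gap was at most as long as that of either library, and in replicate 2 alone all 5 had a gap of at most 105 bp.

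The longest gap, 1916 bp, was on chromosome 10 at 92733719 to 92734524, with SOX10 folds of 9.68 and 8.83 from 12 and 21 tags. The others of the longest 5 were 1842 bp on chromosome 10 (33869301 to 33871296), 1805 bp on chromosome 5 (108506078 to 108507293), 1718 bp on chromosome 9 (116811909 to 116813025) and 1692 bp on chromosome 11 (30103650 to 30104546). Each of the 5 held a peak of 1 H3K27ac library or the other inside the merged gap, so their lengths rest on the need for both libraries. On chromosome 9, for example, the gap was 1742 bp in replicate 1 and 512 bp in replicate 2. The longest gaps were therefore poorly shared between libraries.

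Sites with longer gaps had narrower flanks. From the 217 sites with the shortest gaps (31 to 336 bp) to the 216 with the longest (821 to 1916 bp), the median flank width fell from 936 to 600 bp on the left and from 941 to 580.5 bp on the right. The median of the weaker flank's H3K27ac fold fell from 8.59 to 7.83, in steps of 8.43 and 8.11 between. The median span from the outer edge of one flank to that of the other lay between 2073 and 2268 bp in all 4 groups of sites by gap length. Single spans differed far more, from 842 to 10658 bp over all flanked sites. SOX10 fold was lowest at the shortest gaps, with medians of 10.5, 11.5, 11.9 and 11.6 in replicate 1 and 11.5, 11.95, 11.98 and 12.04 in replicate 2. Median SOX10 tags were 34, 32, 31 and 29 in replicate 1 and 54, 48, 45 and 42 in replicate 2. The input background under the SOX10 peak went from 2.06 to 1.58 times the genome-wide level in both libraries, which share the same input. The part of the background in these differences was not tested. Across the 865 sites the correlation of log2 gap length was 0.06 with log2 SOX10 fold, -0.11 with log2 SOX10 tags, -0.15 with the log2 input background and -0.17 with the weaker flank's log2 fold. These are weak, and wide regions, high tag counts and short gaps share the libraries and their depth.

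The acetylated regions that served as flanks were wider and higher than the other H3K27ac regions. The 1720 flanks had a median width of 716 bp and a median H3K27ac fold of 9.38 in replicate 1 and 8.99 in replicate 2, or 9.19 ± 0.276 (SD, n = 2). The other 34935 regions had 540 bp and folds of 8.51 and 8.45, or 8.48 ± 0.0424. Both flanks had a mean fold of at least 5 at 861 sites, of at least 10 at 120 (13.9%) and of at least 15 at 1. That site, on chromosome 5 at 143578272 to 143585977, had flanks of 3865 and 4368 bp with mean folds of 15.3 ± 0.127 and 15.3 ± 1.15 (SD, n = 2). It was also the widest SOX10 site of the flanked class, 7706 bp, and its SOX10 summits in both libraries were 3846 bp apart, with folds of only 4.16 and 10.3.

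The other sites with the strongest pairs of flanks had closer SOX10 summits. On chromosome 2 at 11085328 to 11086645 the flanks had mean folds of 16.9 and 14.7 beside SOX10 folds of 14.4 and 17.3. On chromosome 4 at 64296050 to 64297399 they had 14.4 and 14.96 beside 20.2 and 16.3, and on chromosome 7 at 54053868 to 54055368 both had 13.85 beside 24.7 and 23.02. On chromosome 14 at 32472708 to 32476349 the right flank had a fold of 28.9 in replicate 1 and 14.6 in replicate 2, and SOX10 had 6.78 and 15.8. The summits of both SOX10 replicates were 13 to 83 bp apart at these 4 sites.

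At most sites the folds of both flanks differed little, but flank folds as a whole lay in a narrow range. In replicate 1 their lower and upper quartiles were 7.87 and 11.04 on the left and 7.86 and 11.11 on the right. Whether flanks of one site were more alike than other neighbouring H3K27ac regions was not tested. The stronger flank's mean fold was a median of 1.21 times the weaker's, at least 1.5 times at 145 sites (16.8%) and at least 2 times at 25 (2.89%). The same flank was the stronger in both H3K27ac libraries at 571 sites, the left one at 299 and the right one at 272, and the libraries disagreed on the side at 272, with a tie in 1 of them at 22. Across the 865 sites the log2 ratio of left to right fold correlated with r = 0.55 between the replicates, and log2 left with log2 right fold with r = 0.16. Both H3K27ac libraries were called against the same input library, so their folds share its counts, and the part of the input in this correlation was not tested.

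A SOX10 summit lay in 764 of the 16791 gaps of at most 1000 bp between neighbouring H3K27ac regions, 4.55% (4.24 to 4.88%). Each such summit is a flanked one by definition, and no gap held more than 1. The median length was 475 bp for the gaps with a summit and 215 bp for those without. The share was 1.13% of 7812 gaps up to 200 bp, 5.98% of 3544 gaps up to 400 bp, 7.76% up to 600 bp, 8.54% up to 800 bp and 9.95% of 1296 gaps up to 1000 bp, where a longer gap also offers more room. Per megabase of gap the order differed: 149 summits up to 200 bp, 203 between 200 and 400 bp, then 156, 123 and 111. Gap sequence held 147 SOX10 summits per Mb over 5.20 Mb, while acetylated regions held 26.7 per Mb over 25.5 Mb. The rule itself sorted the summits into gaps and regions, so this contrast is a description and was not tested. No density for the rest of the genome was set beside it. With the gaps split into 4 equal groups by the fold of the weaker flank, the share of gaps with a summit was 3.57%, 3.67%, 4.24% and 6.72% from the lowest to the highest, and the gaps themselves were shortest in the highest group, with a median of 169 bp against 278.5 bp in the lowest.

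**Figure D3:**
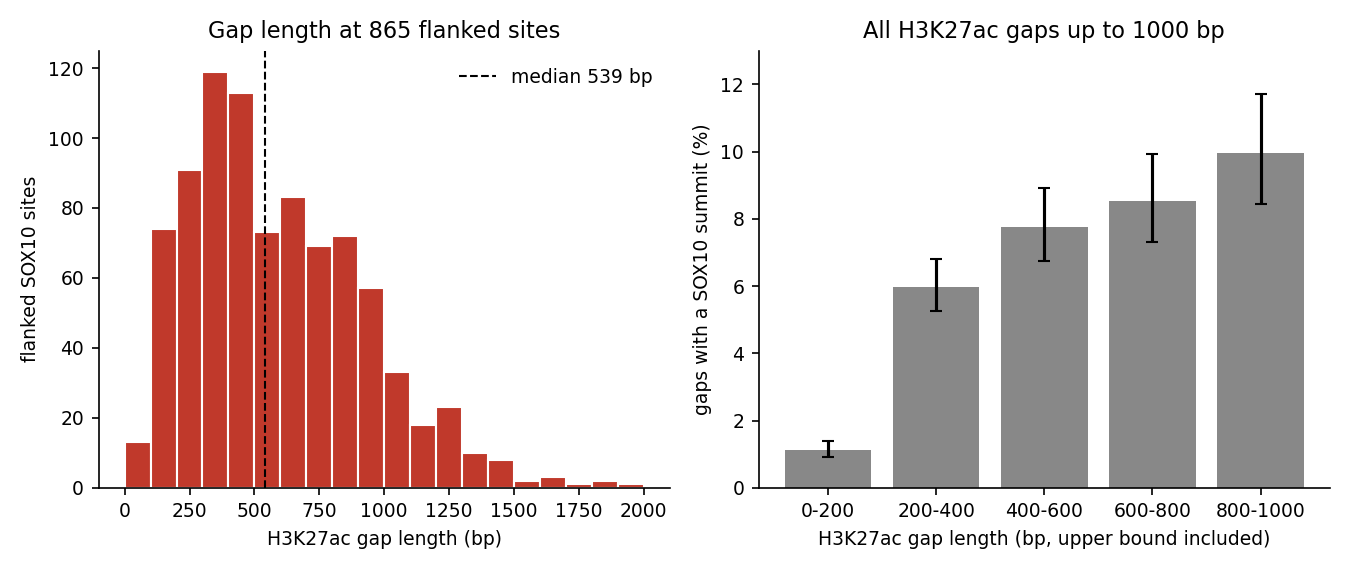
Left, number of flanked SOX10 sites by the length of the H3K27ac gap around their summit (bp, bins of 100 bp, dashed line at the median of 539 bp); right, share (%) of all H3K27ac gaps up to 1000 bp that hold a SOX10 summit, by gap length, with 95% Wilson intervals. Most flanked sites have gaps under 1000 bp, and the share with a summit goes from 1.13% in the shortest gaps to 9.95% in the longest.

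SOX10 peaks at flanked sites held more tags than those at sites without close acetylation. The median was 31 tags in replicate 1 and 48 in replicate 2, against 33 and 50 with the summit inside a region, 25 and 38 with acetylation on one side and 19 and 28 with none within 1 kb. By fold enrichment the order changed. The median fold was 11.35 and 11.97 at flanked sites, or 11.7 ± 0.438 (SD, n = 2). It was 8.12 ± 0.0424 inside regions, 10.9 ± 0.0778 with one side and 11.9 ± 0.0707 with none. Flanked sites and those with none within 1 kb were apart by less than the SD of the former, and sites inside regions were lowest in both libraries. The authors' significance, as -log10(p) multiplied by 10, had medians of 104 and 152 at flanked sites, the highest of the 4 classes in both libraries, where the others ran from 77.8 to 85.2 in replicate 1 and from 101 to 116 in replicate 2.

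Input moved with these differences. The input background under a SOX10 peak, recovered from its tags and p as a multiple of the genome-wide level, had a median of 1.87 in replicate 1 and 1.90 in replicate 2 at flanked sites. It was 2.67 and 2.69 inside regions, 1.58 in both libraries with acetylation on one side and 1.24 in both with none within 1 kb. It was less than 5% above the genome-wide level, or below that level, in both libraries at 48 flanked sites (5.55%) and at 488 (27.7%) of those with none. The summit height, fold multiplied by that background, had a median of 22.4 and 24.1 at flanked sites, 21.1 and 21.7 inside regions, 18.5 and 20.1 with one side and 15.8 and 16.04 with none. The part of input in the order of the classes was not tested. Agreement between the SOX10 libraries, as the correlation of log2 fold over sites, was 0.75 at flanked sites, 0.67 inside, 0.73 with one side and 0.63 with none. Both SOX10 libraries were called against the same input library, so their backgrounds and folds share its counts. Like backgrounds in both libraries are therefore not a replication, and the part of the input in these correlations was not tested.

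**Figure D4:**
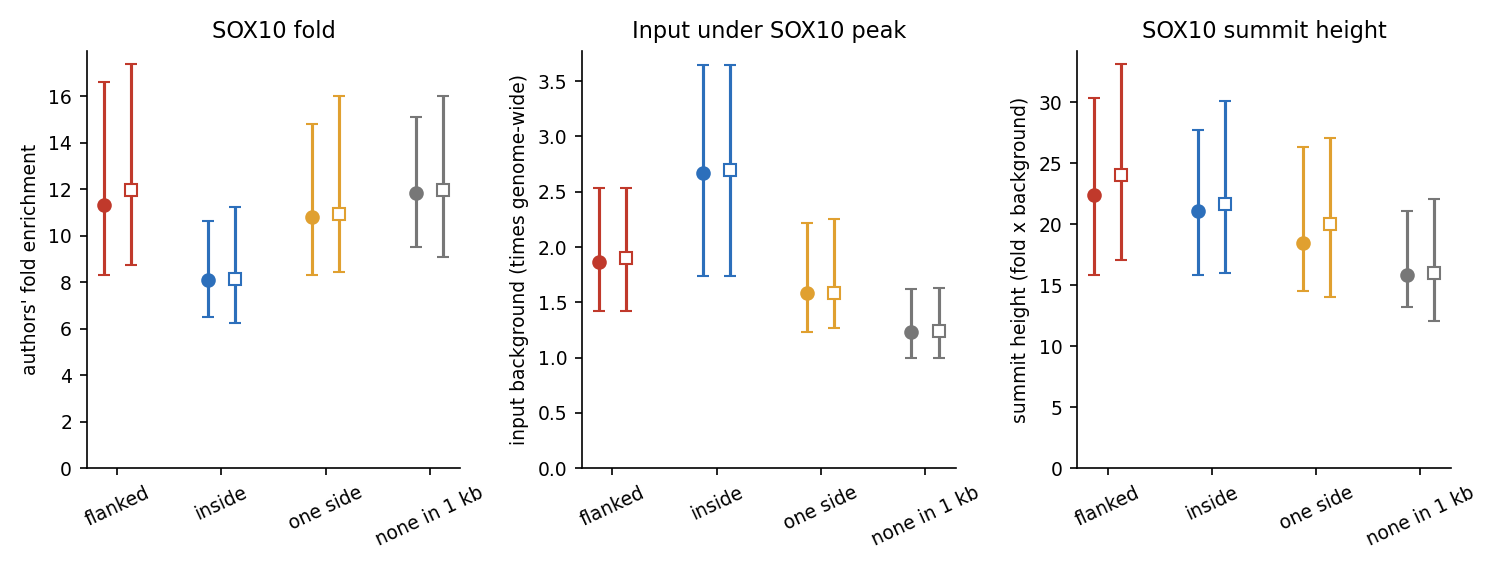
SOX10 peaks in 4 classes of sites (flanked on both sides, summit inside an H3K27ac region, region on one side, none within 1 kb): the authors' fold enrichment, the input background as a multiple of the genome-wide level, and the summit height as fold multiplied by background. Filled circles are medians of replicate 1, open squares of replicate 2, and bars span the middle 50% of sites; sites inside regions have the lowest fold and the highest background, and flanked sites the highest summit height, with medians of 22.4 and 24.1.

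The share of flanked sites went up with SOX10 tags, as did that of sites with the summit inside an H3K27ac region. With all SOX10 sites split into 10 equal groups by mean tags, it was 4.33% in the lowest (10.5 to 17 tags), 18.8% in the fifth, 29.1% in the eighth and 37.5% in the highest (61 tags and more), and it was higher in each group than in the one below. Sites inside regions made up 4.33% of the lowest group and 37.3% of the highest. By fold enrichment it was 15.9% in the lowest group, 21.6% in the second, 16.1% in the seventh and 31.3% in the highest, without such a steady order. Sites inside regions went the other way by fold, from 50.5% of the lowest group to 3.85% of the highest. By width the flanked share was 6.01% in the narrowest group and 33.9% in the widest, and that of sites inside regions 5.77% and 41.8%, so the trends by tags and width were not particular to flanked sites.

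Flanked sites lay in stretches with more called H3K27ac regions and more SOX10 sites. Within 10 kb of the summit there was a median of 7 H3K27ac regions covering 4421 bp. Sites inside regions had 5 regions and 3690.5 bp, and those with one side had 2 regions and 1339 bp. These counts come from the same H3K27ac calls that chose the sites. The rule asks for a pair of regions, which stretches with many or split calls meet more easily, so the differences are partly built in. Another SOX10 site lay within 10 kb at 195 flanked sites, 22.5% (19.9 to 25.4%), beside 14.5% of all SOX10 sites. Inside regions it was 17.2% (14.5 to 20.2%), with one side 14.2% (12.0 to 16.7%) and with none 9.66% (8.37 to 11.1%). The flanked sites shared few flanks: 10 H3K27ac regions served 2 sites each.

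When flanked sites with summits at most 50 kb apart were chained, 616 stood alone, 93 chains held 2, 14 held 3, 4 held 4 and 1 held 5. The chain of 5 ran over 128611 bp on chromosome 19 from 24398383 to 24526993, with mean SOX10 folds from 5.33 to 17.2. A chain of 4 on chromosome 10 from 52550888 to 52655503 began at the site with the highest fold, and its other members had folds down to 9.77. Another chain of 4 lay on chromosome 8 within 34033 bp, from 95371398 to 95405430, with gaps of 106 to 310 bp. The remaining chains of 4 were on chromosome 2 from 52791579 to 52861926 and chromosome 3 from 95769982 to 95821106. Sites of 1 chain are neighbours and were not counted as independent.

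The share of SOX10 sites that were flanked was much alike on most chromosomes. On 18 of the numbered ones it lay between 17.2% on chromosome 7 (39 of 227) and 25.7% on chromosome 11 (66 of 257), and on chromosome 13 it was 11.1% (24 of 216, 7.58 to 16.0%). On chromosome X none of 43 SOX10 sites was flanked, which allows a share of up to 6.98%. Only 29 of the 36655 H3K27ac regions were called there, so few summits on that chromosome could meet the rule.

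H3K27me3, which the rule did not use, was rare close to SOX10 sites with acetylation nearby, flanked ones included. No H3K27me3 region covered a flanked summit, which allows a share of up to 0.347%, and none covered a summit inside an H3K27ac region or with one on one side only. With no H3K27ac within 1 kb 14 of 1759 summits (0.796%) were covered, so cover of the summit does not set flanked sites apart from the other sites near acetylation. 1 of the 865 sites shared bases with an H3K27me3 region, 0.116% (0.0204 to 0.652%), beside 1.32% of all SOX10 sites. Within 1 kb there were 4 (0.462%), beside 3.85% of all SOX10 sites, 1.91% inside regions, 1.88% with one side and 7.22% with none. Within 10 kb there were 101, 11.7% (9.70 to 14.0%), beside 20.4% of all SOX10 sites. The share within 10 kb was 16.9% (14.2 to 19.9%) for summits inside H3K27ac regions, 20.3% (17.7 to 23.1%) with acetylation on one side and 26.2% (24.2 to 28.3%) with none within 1 kb. Within 50 kb it was 50.3% (47.0 to 53.6%), beside 52.2% of all SOX10 sites, and 55.9%, 54.3% and 50.7% in the other classes in the same order. The shares were thus far apart close to the sites and alike in their wider surroundings.

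**Figure D5:**
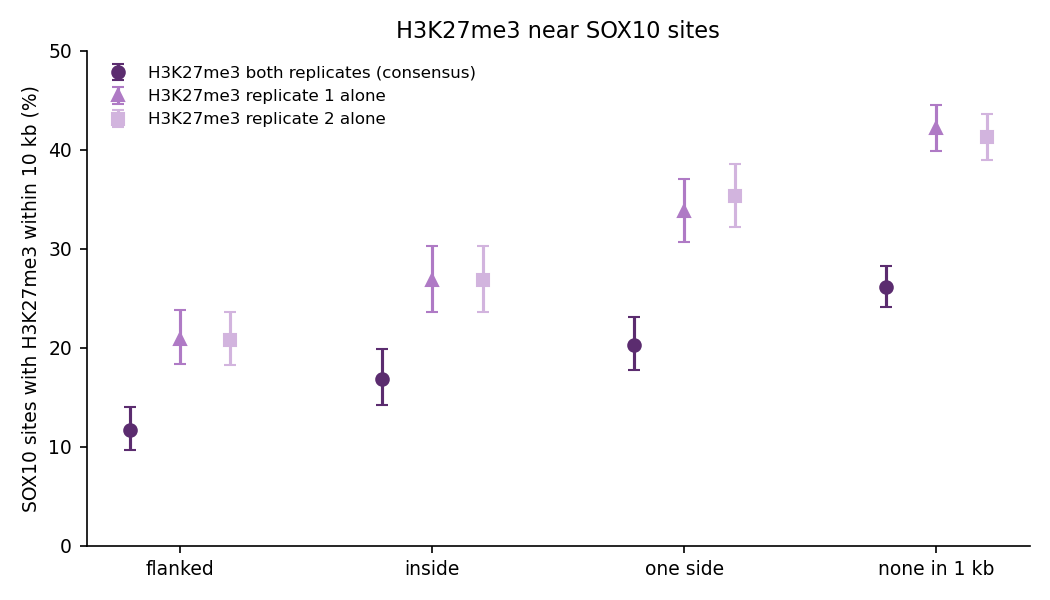
Share (%) of SOX10 sites with an H3K27me3 region within 10 kb, in 4 classes of sites, using regions found in both H3K27me3 replicates (circles), all peaks of replicate 1 (triangles) or all peaks of replicate 2 (squares); bars are 95% Wilson intervals. Flanked sites have the lowest share with each set of regions, 11.7%, 20.9% and 20.8%.

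The level of that share depended on the H3K27me3 regions used, and its order over the classes did not change with them. With all peaks of H3K27me3 replicate 1 it was 20.9% at flanked sites, 26.8% inside, 33.8% with one side and 42.2% with none, and with those of replicate 2 it was 20.8%, 26.8%, 35.3% and 41.3%. Leaving out chromosome 6, with 58 flanked sites, gave 9.29%, 13.9%, 18.4% and 24.6%. Acetylation nearby moved with it. Among sites with 500 to under 2000 acetylated bases within 10 kb, 9.87% (6.07 to 15.6%) of 152 flanked sites had H3K27me3 within 10 kb, against 21.5% (16.1 to 28.1%) of 177 sites inside regions, 21.4% (17.7 to 25.6%) of 412 with one side and 27.9% (22.4 to 34.1%) of 226 with none. With 2000 to under 4000 such bases the shares were 13.4% of 231, 22.9% of 175 and 21.5% of 209, and 18.5% (10.9 to 29.6%) of 65 sites with none within 1 kb. Among sites with 4000 to under 8000 such bases it was 11.8% (8.65 to 15.9%) of 305 flanked sites and 10.1% (6.46 to 15.3%) of 179 inside regions, with 14.3% of 84 with one side and 18.2% of 22 with none. With 8000 or more it was 10.7% (6.98 to 16.2%) of 177 flanked sites and 12.1% (7.72 to 18.6%) of 140 inside regions. In these 2 groups, with the most acetylation nearby, the intervals of flanked sites and those inside regions overlapped widely.

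The flanked sites within 1 kb of H3K27me3 were few and of ordinary SOX10 strength. The only one that shared bases with it was on chromosome 14 at 70038636 to 70039841, with SOX10 folds of 9.71 and 16.4, a gap of 574 bp and mean flank folds of 8.59 and 7.44. On chromosome 16 at 94054937 to 94056377 the site had folds of 17.9 and 13.9 and lay 62 bp from H3K27me3. The others, chr11:69704661-69705718 and chr6:42515950-42517309, were 815 and 867 bp away, with mean folds of 9.35 and 6.97.

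The number of flanked sites rested on how the lists were joined. A gap is a stretch without a called H3K27ac peak shared by both libraries, not a measured loss of signal, and a single acetylated stretch called in 2 pieces gives a gap too. The authors' fragment length estimate (d in the peak caller) came to 50 and 51 bp for H3K27ac, where tags were 51 bp long, and to 225 and 212 bp for SOX10. How many gaps are split calls was not tested, since signal between peaks was not analysed here. Joining H3K27ac regions under 200 bp apart left 778 flanked sites and joining those under 500 bp apart left 455. Taking H3K27ac peaks of either library gave 1459, all peaks of SOX10 replicate 2 as sites, without replicate 1, gave 1361 (14.2% of them), and keeping only SOX10 and H3K27ac peaks with -log10(p) times 10 of at least 100 gave 266, at a share of 21.3%.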

How the data were processed

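Peak lists of 6 ChIP-seq libraries were used, 2 per antibody, grouped by antibody and replicate as titled by the submitters. The 2 input libraries enter only as the background of the calls. Per the file headers, the authors called peaks in each library with MACS 1.4.2 at a p cutoff of 1e-05, keeping at most 1 tag per position and scaling the larger library to the smaller. Per the file headers the input background was local (1000 and 10000 bp) for SOX10 and H3K27ac, and the local part was off for H3K27me3. The build is mm9, per the submitters' processing notes. The sources used here name no aligner.

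The deposited lists give whole-number tag counts per peak, -log10(p) multiplied by 10 (so the cutoff is 50), a fold ratio over background at the summit, and an FDR in percent, which was not used. The damaged title of 1 column in a deposited SOX10 list was read by position. Of several peaks of 1 library in a region, values are from the one with most tags. Input background is the Poisson mean at which the tags give p, over peak length and the genome-wide level.

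Python 3.11.15, numpy 2.4.6, pandas 2.3.3 and scipy 1.17.1 were used, and classes, gaps, merging and backgrounds were tested on simulated data. The sites and the measures were chosen with earlier results of these data known. Sites were named by rule: the 10 highest mean SOX10 folds, the 5 highest weaker-flank folds, the 5 longest and 5 shortest gaps, sites within 1 kb of H3K27me3, and 3 on each side of the distance limit. Chains of sites were described after their values were seen.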

Additional observations from a re-analysis of the deposited data

How the results depend on the processing

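No paired analysis was possible because the results come from no test. With 500 bp and 2 kb as the flank limit, the flanked share was 14.0% and 25.2% and the median gap 393 and 649 bp. With H3K27ac peaks of either replicate there were 1459 sites (35.1%), a median gap of 524 bp and 16.2% with H3K27me3 within 10 kb. At -log10(p) times 10 of at least 100 there were 266 sites, a gap of 557 bp and 9.02% near H3K27me3. Where replicate peaks had to share at least 50% of the shorter, these were a share of 19.5%, 560 bp and 9.65%. Joining H3K27ac regions under 200 bp apart gave a share of 18.7% and a gap of 596.5 bp; under 500 bp apart it gave 455 sites (10.9%), 802 bp and 14.5%. The summit of highest fold gave a gap of 532 bp. Without H3K27ac replicate 1 or 2 there were 1262 or 1274 sites, at shares of 30.3% or 30.6%. Without SOX10 replicate 1 or 2 there were 1361 or 1029 sites, at shares of 14.2% or 16.1%. Over these settings median gaps ran from 538 to 607.5 bp, and 12.6% to 14.5% of sites lay near H3K27me3. Without H3K27me3 replicate 1 or 2 the flanked sites stayed the same, with 20.8% or 20.9% near H3K27me3. Alternatives chosen after seeing the data were the SOX10 replicate 1 summit (gap 532 bp), gaps free of any H3K27ac peak base (share 15.6%, gap 423 bp) and no chromosome 6 (9.29% near H3K27me3). Leaving out unplaced sequences moved no value beyond its interval. A median SOX10 peak held 21 and 29 tags, which limits how finely a summit is placed.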
